A study of Mus musculus with 24 samples.

Results

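Smooth muscle contractile genes encode the proteins with which the muscle wall of the uterus, the myometrium, and the muscle coat of blood vessels shorten and hold tension. The set holds 10 genes: Myh11, Mylk, Acta2, Actg2, Tagln, Cnn1, Smtn, Tpm1, Tpm2 and Des. A probe set, the array's unit of measurement for a transcript, was a member when the platform annotation named 1 of these genes and no other. This gave 11 probe sets of the 12422 tested and 10 of the 8251 genes that single-gene probe sets name. Every gene had 1 probe set except Tpm2, which had a bright and a dim one.

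RNA came from whole uteri of mice ovariectomized at 6 weeks of age and injected 2 weeks later. The 8 groups were progesterone receptor knockout (PRKO) mice given progesterone (P4), PRKO mice given vehicle, wild-type mice given P4 and wild-type mice given vehicle, each at 4 h and at 40 h, with 3 arrays a group and 24 in all. P4 was given at 1 mg per mouse in sesame oil, and vehicle was sesame oil alone. Mice of the 4 h groups had 1 injection, and mice of the 40 h groups had 4 injections, 1 every 12 h, with death 4 h after the last. All groups thus lacked ovaries, and the labels name no estrogen treatment. Each genotype and treatment was represented by RNA pooled from 5 mice. Whether a group's 3 arrays are separate pools or repeat hybridisations of a single pool is unstated, so errors and p-values measure the spread between arrays, which may be technical.

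Contraction of smooth muscle starts when calcium and calmodulin activate myosin light chain kinase, which phosphorylates the light chains of myosin and lets it pull on actin filaments. Thin-filament proteins modulate that cycle, and intermediate filaments tie the contractile lattice together. In the uterus these genes are known as the program of the differentiated myometrium, and progesterone is known for keeping the pregnant myometrium quiescent. Many of them are known targets of serum response factor, which with its coactivator myocardin binds CArG boxes (CC, then 6 bases A or T, then GG) in their promoters.

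The promoter of Acta2 is shown because it alone among those available held sequences like a CArG box. RefSeq promoter windows (GRCm38.p6, 250 bases before to 50 after the gene's start) were available for 7 of the 10 genes, namely Acta2, Cnn1, Des, Mylk, Smtn, Tpm1 and Tpm2. Actg2, Tagln and Myh11 had none in the table used. The 250 bases before the start of Acta2, at chr19:34255374-34255623 on the minus strand, are given 5′ to 3′ with the CArG-like boxes in capitals.
Acta2: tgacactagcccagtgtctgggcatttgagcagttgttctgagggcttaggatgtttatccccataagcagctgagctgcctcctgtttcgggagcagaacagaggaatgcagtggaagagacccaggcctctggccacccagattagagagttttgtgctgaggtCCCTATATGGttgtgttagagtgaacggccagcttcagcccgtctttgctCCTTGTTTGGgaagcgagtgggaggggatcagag
The boxes CCCTATATGG and CCTTGTTTGG begin 84 and 34 bases before the start, and each has 1 C or G among the 6 core bases. A box with at most 1 C or G in its core was found in 1 of the 7 windows and in 9.98% of the 32851 windows of the table, and the strict CArG box in 0 of 7 and in 1.63% of all. A CArG box read on the opposite strand is again a CArG box, so the search covered both strands. The half-site of the hormone response element that the progesterone receptor shares with other steroid receptors, TGTTCT or AGAACA on the other strand, occurred in 2 of the 7 windows, in Acta2 at 216 and 154 bases before the start and in Mylk at 162, and in 19% of all windows. The full element, AGAACA and TGTTCT with 3 bases between them, occurred in 0 of 7 and in 0.00913% of all. These matches describe letters in a window, and no binding was measured.

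All members but the dim Tpm2 probe set were bright on every array. Signals are the authors' values scaled to a common array mean of 500 (2% trimmed at each end), in arbitrary units. The bright probe sets ranged from 818 to 9462 across genes and arrays, and the dim Tpm2 probe set from 117 to 199. Levels of different genes are not set against each other, because each depends on its own probes. The summed signal of the 10 genes was 44306 to 47832 on the 3 arrays of wild-type uteri given P4 for 40 h, and 36977 to 45225 on the other 21 arrays. In whole-uterus RNA, more muscle cells and more RNA per muscle cell cannot be told apart.

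The probe set of Pgr, the disrupted receptor gene, gave a low signal of 110.2 to 139 on 12 PRKO arrays (median 121) and 103 to 169 on 12 wild-type arrays (median 144). The genotypes overlapped, so this probe set is no check of genotype. No source here says whether its probes fall inside the disrupted stretch. The 3'/5' signal ratio of the Gapdh control, a sign of RNA quality, was 3.25 in replicate 2 of the wild-type 4 h P4 group and 3.67 in replicate 2 of the wild-type 4 h vehicle group, against 1.23 to 1.86 on the other 22 arrays. At their brightest probe sets all 10 contractile genes lay above the median signal of the table in every group, as did 4 or 5 of 14 skeletal muscle markers.

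**Figure D1:**
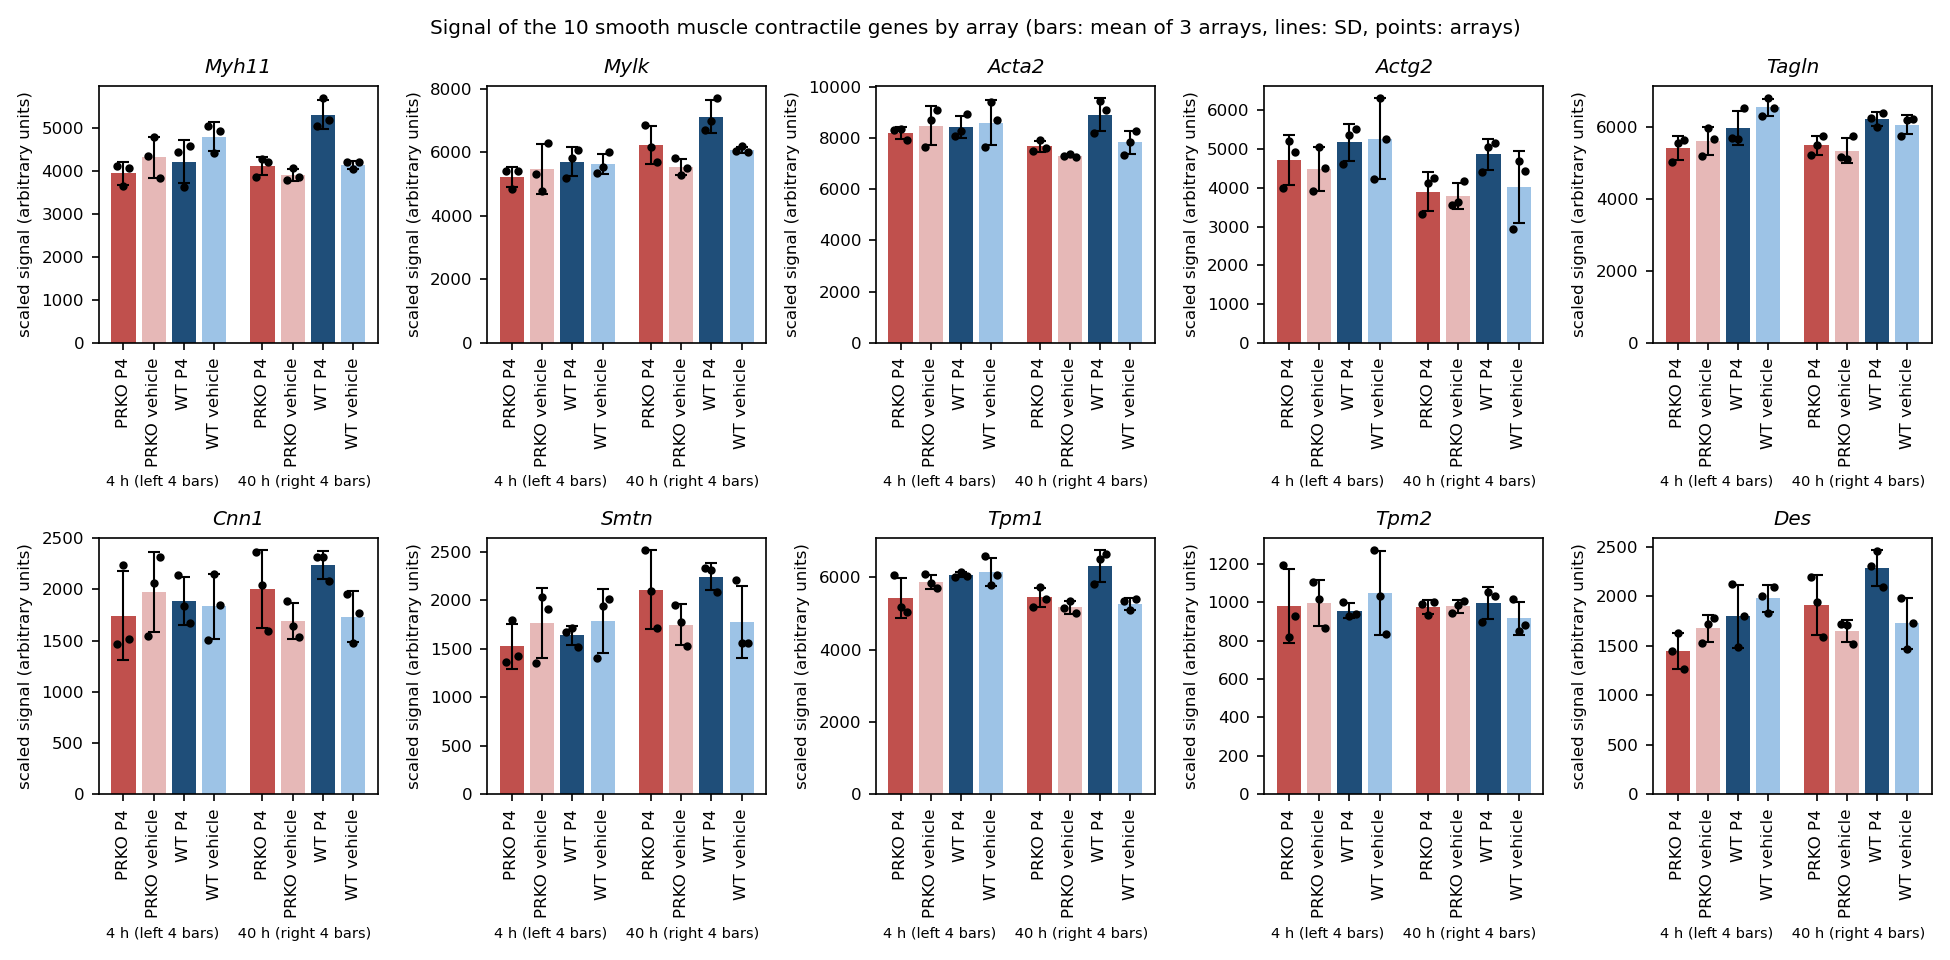
Scaled signal (arbitrary units, linear axis from 0) of each of the 10 genes, with Tpm2 at its bright probe set; bars are means of 3 arrays, lines the SD and points the arrays, with the 4 h groups left and the 40 h groups right. The wild-type P4 group at 40 h has the highest mean of the 8 groups for Myh11, Mylk, Acta2, Cnn1, Smtn, Tpm1 and Des, and the points of many groups overlap.

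The first question is what 40 h of P4 did to these genes in wild-type uteri. The 10 genes had positive P4 values against vehicle at their brightest probe sets, with a median of 0.28 on the log2 scale (range 0.04 to 0.41), while the median of all probe sets was 0.00. None of the 11 member probe sets passed the test over all probe sets, in which 1.54% passed. The changes were small, from 1.03-fold for Tagln to 1.33-fold for Des, and each is given with its arrays below. All fold changes are on the log2(signal + 32) scale and all adjusted p-values are from limma with Benjamini-Hochberg adjustment over the 12422 probe sets.

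Myh11, the heavy chain of smooth muscle myosin, was the member nearest to passing. It gave 5054, 5696 and 5194 in the P4 uteri, against 4199, 4041 and 4199 in the vehicle uteri. The lowest P4 array lay well above the highest vehicle array. The log2 change was 0.35 ± 0.09 (SE; 95% interval 0.16 to 0.55; limma adjusted p = 0.0589). Fitted on the 40 h arrays alone, Myh11 passed (0.35 ± 0.07, adjusted p = 0.0129), where 4.34% of all probe sets passed and 1.7% did so upward. That call was lost without replicate 2 of the P4 group, when 0 members passed, and leaving out any other wild-type array of 40 h gave 1 or 2 members, Myh11 among them each time.

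Mylk, the kinase that switches on the myosin motor, gave 6698, 6976 and 7704 after P4, against 6047, 6194 and 6001 after vehicle. The groups did not overlap, and the change was 0.23 ± 0.09 (interval 0.03 to 0.42; adjusted p = 0.323).

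The actin pair form the thin filament on which myosin pulls. Acta2, the vascular-type smooth muscle actin, gave 8219, 9462 and 9096 after P4, against 7362, 7840.5 and 8297 after vehicle, a change of 0.19 ± 0.08 (adjusted p = 0.343). Actg2, the enteric-type actin that is abundant in uterine muscle, gave 4405, 5052 and 5148 after P4, against 2946, 4679.7 and 4424 after vehicle, a change of 0.30 ± 0.16 (adjusted p = 0.502). In both actins the lowest P4 array lay below the highest vehicle array, and for Actg2 the spread was set by vehicle replicate 1. The Actg2 probe set carries the platform's suffix for probes shared within a gene family, so signal of the near-identical actins cannot be told apart there.

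Proteins that modulate the thin filament differed among themselves. Cnn1, calponin, which restrains the actin-myosin cycle, gave 2321, 2313 and 2081 after P4, against 1960.2, 1474 and 1773 after vehicle (0.37 ± 0.18, adjusted p = 0.417), and the groups did not overlap. Its probe set also carries a suffix for probes shared between transcripts. Smtn, the actin-binding protein smoothelin of contractile smooth muscle, gave 2333, 2311 and 2082 after P4, against 2211, 1561 and 1557 after vehicle (0.35 ± 0.17, adjusted p = 0.439), with vehicle replicate 1 inside the P4 range.

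Tpm1, the alpha tropomyosin that lies along the actin filament, gave 5814, 6499 and 6644 after P4, against 5340.3, 5085 and 5394 after vehicle. All P4 arrays lay above all vehicle arrays (0.26 ± 0.08, interval 0.10 to 0.41, adjusted p = 0.103). Tpm2, the beta tropomyosin, gave 897, 1053 and 1034 after P4, against 1015, 852 and 882 after vehicle at its bright probe set (0.12 ± 0.13). Its dim probe set gave 154, 177 and 199 after P4, against 185, 183 and 169 after vehicle (−0.02 ± 0.10), and both overlapped. Tagln, the actin-binding protein SM22 alpha and a standard marker of smooth muscle, gave 6260.2, 6012 and 6399 after P4, against 5754, 6207 and 6234 after vehicle. With a change of 0.04 ± 0.08 and a 95% interval of −0.12 to 0.20, it had the smallest change of the 10 genes at their brightest probe sets.

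Des encodes desmin, the intermediate filament protein of muscle. It gave 2304, 2458 and 2097 after P4, against 1982, 1465 and 1728 after vehicle. The groups did not overlap, and the change of 0.41 ± 0.13 was the largest among the members (interval 0.13 to 0.69; adjusted p = 0.161).

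As a group, 5 of the 11 member probe sets had all 3 P4 arrays above all 3 vehicle arrays, namely Myh11, Mylk, Cnn1, Tpm1 and Des, where 9.76% of all probe sets did. Before adjustment, 6 of 11 had p under 0.05, all upward, against 11.7% of all probe sets in either direction and 5.5% upward, and 10 of 11 lay above 0, against 50.2% of all. The median over the 11 probe sets, 0.26, is set here beside the 0.00 of all probe sets as a description.

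**Figure D2:**
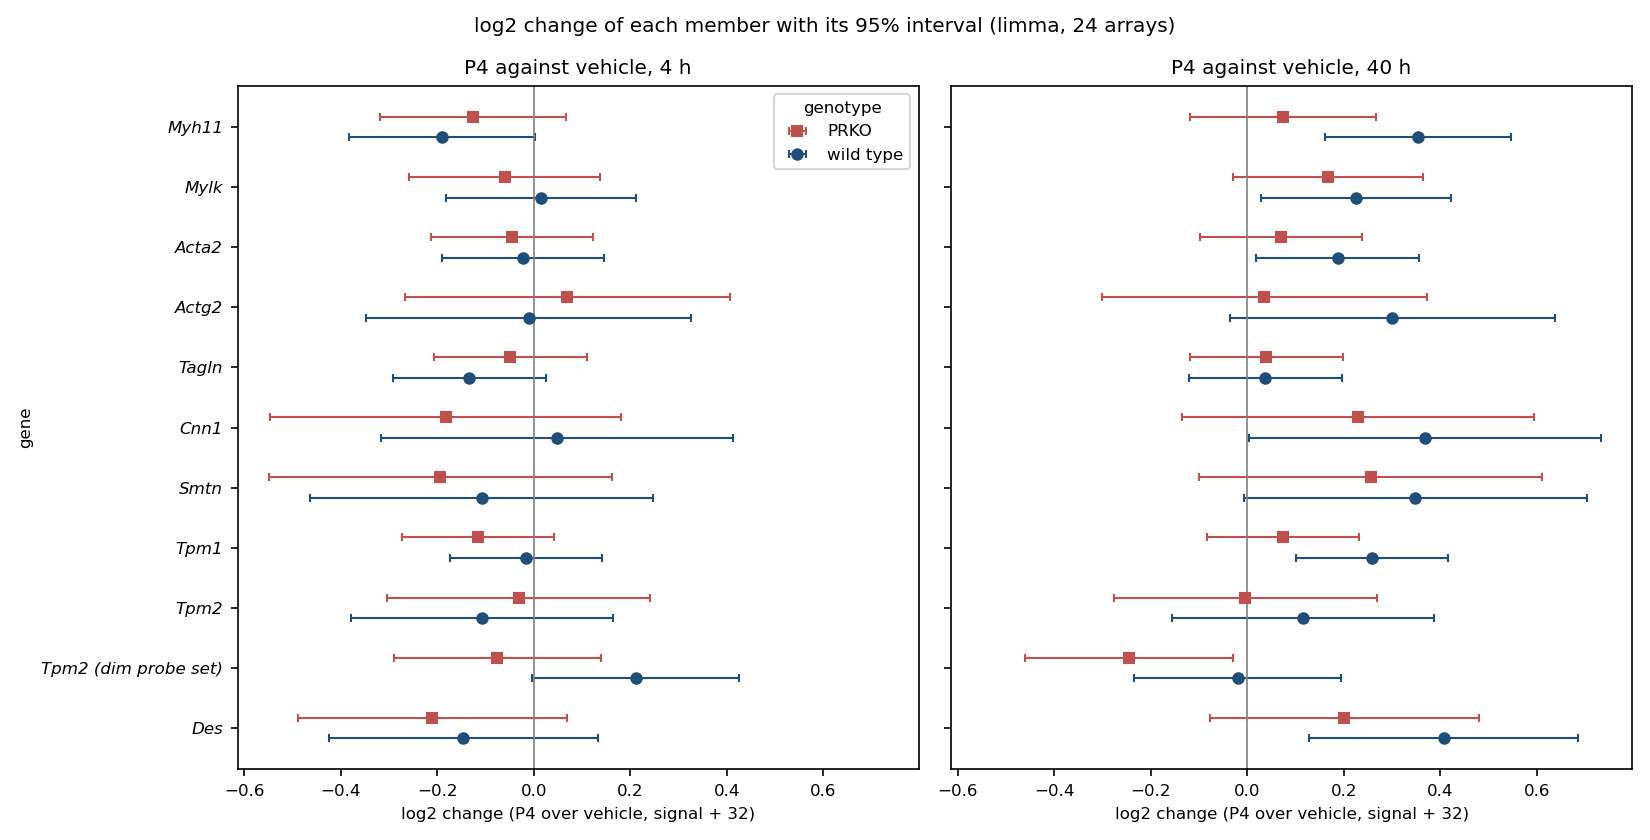
Log2 change of each member probe set, P4 over vehicle (signal + 32), with its 95% interval from limma on 24 arrays, at 4 h (left) and 40 h (right); red squares are PRKO and blue circles wild type. At 40 h the wild-type values reach 0.41 (Des), most PRKO values lie nearer to 0, and at 4 h the values scatter around and below 0.

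At 4 h the same wild-type contrast gave no member call (0 of 11, against 0.708% of all probe sets passing) and no unadjusted p under 0.05 among members, against 6.23% of all. No member had all P4 arrays above all vehicle arrays (3.65% of all did) or below them (3.01% did). Myh11 gave 4447, 3638 and 4575 after P4, against 5058, 4412 and 4933 after vehicle (−0.19 ± 0.09, interval −0.38 to 0.00, adjusted p = 0.818). The groups overlapped, with a single vehicle array inside the P4 range, and within each same-numbered pair the P4 array was the lower (3 of 3 pairs). With the pair as a block the adjusted p was 0.528. Des gave 2118, 1482 and 1796 after P4, against 2004, 1829 and 2096 after vehicle (−0.15 ± 0.13). The other 8 genes lay between −0.13 and 0.05 at their brightest probe sets, and 8 of 11 member probe sets were below 0, where 49.4% of all were. Without both arrays of high Gapdh ratio, Myh11 was at −0.15 and Des at −0.07, and no member passed.

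The difference between the 40 h and the 4 h effect of P4 in wild-type uteri was tested directly. No member passed, where 0.475% of all probe sets did, and 3 of 11 had an unadjusted p under 0.05, against 6.39% of all. Myh11 came nearest at 0.54 ± 0.13 (interval 0.27 to 0.82, adjusted p = 0.0757), and Des stood at 0.55 ± 0.19 (adjusted p = 0.355). The difference lay above 0 for 10 of 11 member probe sets, against 48.6% of all, and the exception was the dim Tpm2 probe set at −0.23 ± 0.15. Without both arrays of high Gapdh ratio, the Myh11 difference was 0.50 (adjusted p = 0.128). With the replicate number as a block, Myh11 passed (0.54 ± 0.12, limma adjusted p = 0.0442), 1 of 11 members. With that block 112 of all probe sets passed, against 59 without it. No label pairs the arrays. The pairing was read from correlations of the wild-type 4 h arrays, while this contrast also uses 40 h arrays.

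Wild-type vehicle arrays of 40 h were set against those of 4 h, because the contrasts above share these arrays. The 40 h mice had more injections than the 4 h mice, so time and number of injections cannot be told apart here. That holds too for the difference between the 40 h and 4 h effects of P4. Wild-type vehicle arrays at 40 h lay below those at 4 h for 9 of 11 member probe sets, against 40.1% of all, and no member passed (0.29% of all did), with 4 of 11 at an unadjusted p under 0.05, against 15.3% of all. Tpm1 gave 5340.3, 5085 and 5394 at 40 h, against 6578, 5789.5 and 6073 at 4 h (−0.22 ± 0.08, adjusted p = 0.175). Actg2 had the largest negative value (−0.40 ± 0.16, adjusted p = 0.241). All 40 h vehicle arrays lay below all 4 h ones for Tagln, Myh11 and Tpm1, that is 3 of 11, against 4.79% of all probe sets, and above them for Mylk and the dim Tpm2 probe set, 2 of 11, against 11.5% of all. The dim Tpm2 probe set lay higher at 40 h, with 185, 183 and 169 against 127, 143 and 117 (0.39 ± 0.10, adjusted p = 0.0836), while the bright one had −0.17 ± 0.13, so the Tpm2 probe sets disagreed in sign. Without both arrays of high Gapdh ratio the dim probe set passed (0.45, adjusted p = 0.0440), where 187 of all probe sets passed against 36 with those arrays. With the replicate number as a block Actg2 (limma adjusted p = 0.0301) and the dim Tpm2 probe set (adjusted p = 0.0377) passed, where 335 of all did. Nothing pairs arrays across the times, and numbers are nested in time. Those p-values thus take no account of spread between blocks. The P4 contrast at 40 h is therefore measured against vehicle arrays that, for Myh11, Tagln and Tpm1, lay below those of 4 h.

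In PRKO uteri, which lack the receptor that P4 acts through, no member passed at 40 h, and none of all probe sets did (0%), while 1 of 11 had an unadjusted p under 0.05, against 6.69% of all. Myh11 gave 3871, 4283 and 4201 after P4, against 3796, 4075 and 3857 after vehicle (0.07 ± 0.09, interval −0.12 to 0.27). The arrays of both treatments overlapped. Mylk gave 6875, 6164 and 5687 after P4, against 5818, 5300.4 and 5502 after vehicle (0.17 ± 0.09, adjusted p = 0.703). Smtn, with 2522, 2096 and 1716 after P4 against 1952, 1774 and 1526 after vehicle, had the largest value (0.26 ± 0.17, adjusted p = 0.703). Cnn1 followed at 0.23 ± 0.18 and Des at 0.20 ± 0.13.

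For Cnn1, Smtn and Des the 3 PRKO P4 arrays spread more widely than the treatment means differed. Cnn1, Smtn, Des, Mylk, Acta2, Myh11 and Tpm1 were each higher after P4 in 3 of 3 same-numbered pairs. The dim Tpm2 probe set was lower in 3 of 3, and Actg2, Tagln and the bright Tpm2 probe set were mixed. The share of all probe sets with such pairs is not given here. The labels do not pair these arrays, and with the replicate block no member passed (Smtn adjusted p = 0.496). Acta2 was the only member whose 3 PRKO P4 arrays (7510.4, 7936 and 7601) all lay above the vehicle arrays (7307, 7365 and 7281), 1 of 11 against 5.88% of all probe sets, at 0.07 ± 0.08. The dim Tpm2 probe set had all P4 arrays below all vehicle arrays (−0.25 ± 0.10, adjusted p = 0.703), 1 of 11 against 16.4% of all. The 10 genes had a median of 0.07 at their brightest probe sets, against −0.04 for all probe sets, and 9 of 11 probe sets lay above 0, against 36.6% of all.

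Whether the 40 h effect of P4 differed between the genotypes was tested as PRKO minus wild type. No member passed, where 0.105% of all probe sets did, and 1 of 11 had an unadjusted p under 0.05, against 9.1% of all. Myh11 had the largest difference (−0.28 ± 0.13, interval −0.55 to −0.01, unadjusted p = 0.0446, limma adjusted p = 0.542). Actg2 stood at −0.27 ± 0.23 and Tpm1 at −0.18 ± 0.11, while Mylk (−0.06 ± 0.13, interval −0.34 to 0.22), Smtn (−0.09 ± 0.24) and Tagln (0.00 ± 0.11) were near 0. The difference lay below 0 for 10 of 11, against 57.9% of all probe sets. A difference between the genotypes was thus not detected after adjustment, and the widths of the intervals do not show that they responded alike.

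At 4 h no member passed in PRKO uteri (0% of all did), and 0 of 11 had an unadjusted p under 0.05, against 1.9% of all. The 10 genes had a median of −0.09, and 10 of 11 probe sets lay below 0, against 52.1% of all. Des had −0.21 ± 0.13 and Smtn −0.19 ± 0.17, and Actg2 was the exception at 0.07 ± 0.16. In the difference between genotypes at 4 h 0 members passed (0.0966% of all did), 0 had an unadjusted p under 0.05 (3.49% of all did) and 7 of 11 lay below 0 (51.1% of all did).

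Vehicle uteri of the genotypes were compared as well. No member passed at 4 h (0.185% of all probe sets did) or at 40 h (0.0644% did). Before adjustment 2 of 11 had p under 0.05 at 4 h, against 5.02% of all, and 1 of 11 at 40 h, against 3.08%. PRKO values lay below wild-type ones for 9 of 11 at 4 h, against 43.7% of all, and for 10 of 11 at 40 h, against 54.1%. Tagln was the member furthest from 0 in relation to its error. At 4 h it gave 5194, 5969 and 5662 in PRKO uteri, against 6310.0, 6804 and 6526 in wild-type uteri (−0.22 ± 0.08, interval −0.38 to −0.07), and the groups did not overlap, with a limma unadjusted p = 0.00789 that did not pass adjustment. At 40 h it gave 5159, 5123 and 5757 in PRKO uteri, against 5754, 6207 and 6234 in wild-type uteri (−0.18 ± 0.08), where the groups met at 5757 and 5754.

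Over all treatments and times, Tagln ran from 5042 to 5969 on the 12 PRKO arrays (median 5530.5) and from 5682 to 6804 on the 12 wild-type arrays (median 6247). Treatments and times are mixed in these ranges, so they are a description with no test. At 4 h all PRKO vehicle arrays lay below all wild-type ones for Tagln and Des, 2 of 11 against 1.98% of all probe sets, and at 40 h for Mylk alone, 1 of 11 against 6.33%.

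Members also varied between arrays of the same group, and not as 1 block. Each array's log2 signal was taken as a deviation from its group mean, and Pearson r was computed over the 24 arrays for the 45 pairs of genes. Cnn1 and Smtn went together most closely (r = 0.87), and it held at 4 h (0.87) and at 40 h (0.90) alone. Des had r = 0.68 with Cnn1 (0.50 at 4 h and 0.95 at 40 h) and 0.61 with Smtn (0.33 at 4 h and 0.90 at 40 h). Actg2 went with Tagln (0.75) and Acta2 (0.69), and Tpm1 with Tpm2 (0.64). These were the 6 pairs above 0.6.

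Other pairs differed in sign between the 4 h and the 40 h arrays. Actg2 with Smtn had r = 0.75 at 4 h and −0.91 at 40 h, Actg2 with Cnn1 0.61 at 4 h and −0.75 at 40 h, and Acta2 with Smtn 0.70 at 4 h and −0.42 at 40 h. The pooled values of these pairs, −0.07, 0.02 and 0.27, thus average opposite signs. Over all 45 pairs the pooled median was −0.05, with 7 pairs below −0.4, among them Actg2 with Tpm2 (−0.52) and Actg2 with Des (−0.47). The arrays share their pools, scaling and labelling, so these values describe the arrays. Centring removes differences between groups and moved r either way. Without it the median of the 45 pairs was 0.30, while Tpm1 with Tpm2 had 0.47 without it and 0.64 with it.

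**Figure D3:**
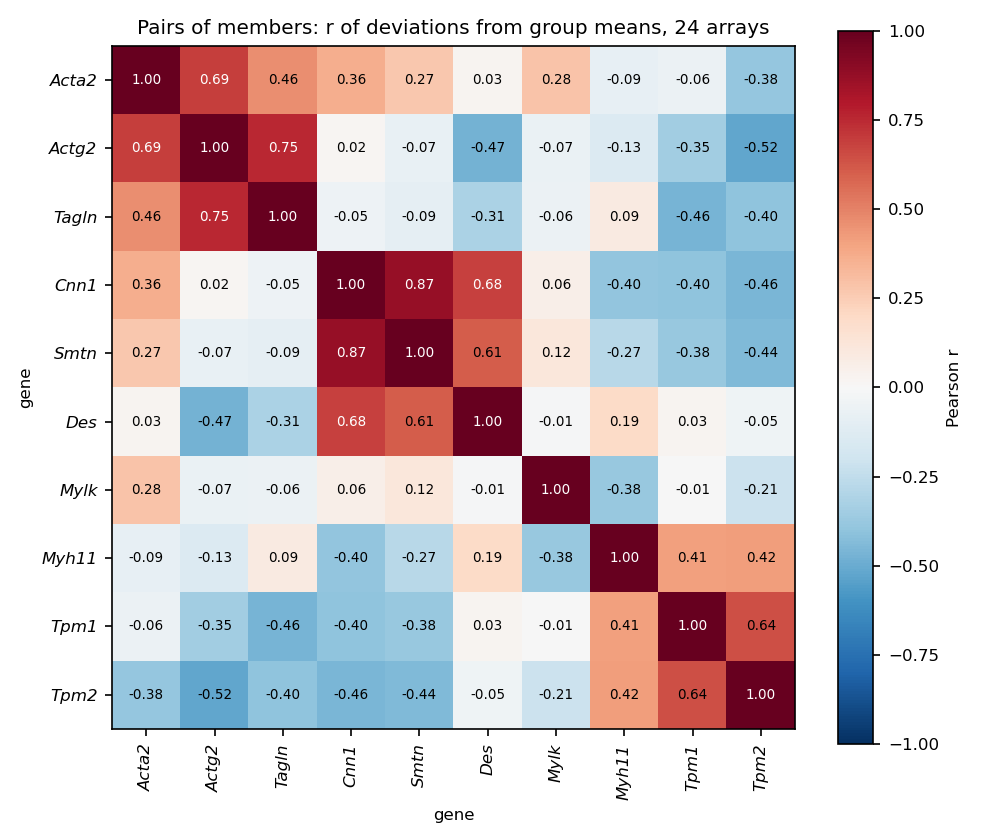
Pearson r between each pair of the 10 genes (Tpm2 at its bright probe set), from deviations of log2 signal from group means over 24 arrays; red is positive and blue negative. Cnn1, Smtn and Des form 1 positive block (0.61 to 0.87), Actg2, Tagln and Acta2 another (0.46 to 0.75), and Tpm1, Tpm2 and Myh11 one more (0.41 to 0.64).

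The non-member genes most like the mean of the 10 standardized members over the 24 arrays were sought among 10822 single-gene probe sets. They were Tnni2, a fast skeletal troponin I (r = 0.88, at a low mean signal of 113), Capn6, a calpain family member (0.86), and Galm, galactose mutarotase (0.79). Bgn, the matrix proteoglycan biglycan (0.79), Ptger3, the prostaglandin E receptor EP3 (0.78), and Fez1, known from neurite outgrowth (0.78), followed. Within groups Tnni2 kept r = 0.78, and Fez1 had 0.25. The choice used the wild-type 40 h P4 arrays too, where the members' mean was highest. A rise of these genes in that contrast is thus partly built into the choice. After 40 h of P4 in wild-type uteri, Capn6 (0.37 ± 0.09, limma adjusted p = 0.0278), Fez1 (0.45 ± 0.11, adjusted p = 0.0399) and Ptger3 passed. Tnni2 (0.45 ± 0.12, adjusted p = 0.0613), Bgn (0.39 ± 0.10, adjusted p = 0.0613) and Galm (0.21 ± 0.07, adjusted p = 0.193) did not.

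Other genes of smooth muscle were read from lists. Of 34 further genes of the smooth muscle cytoskeleton, 26 were measured by 44 probe sets, and 1 rose and 0 fell after 40 h of P4 in wild-type uteri, against 1.54% of all probe sets passing. The one was Pdlim3, an actinin-associated LIM protein, at a mean of 1034 after P4 and 661 after vehicle (0.63 ± 0.15, adjusted p = 0.0325). Pdlim7, a second LIM protein of this family, had 0.32 and 0.38 at a pair of probe sets (adjusted p = 0.0684 and 0.0994) and 0.09 and 0.00 at its others. Myl9, the regulatory light chain that Mylk phosphorylates, had 0.37 ± 0.17 (adjusted p = 0.386). Crip1 had 0.32 ± 0.14, Vcl 0.25 ± 0.10 and 0.36 ± 0.26 at its probe sets, and Dstn 0.24 ± 0.10, and none of these passed. Pdlim7, Myl9, Crip1, Vcl and Dstn were named after their values were seen, and some other genes of the list lay near or below 0. Csrp1 had 0.07 and 0.06 and Fhl1 0.03, −0.04 and 0.08 at their probe sets. Dmd had −0.21 ± 0.16 and Actn4 −0.21 ± 0.13. Of the 44 probe sets 31 lay above 0, against 50.2% of all, and the list's median was 0.06. Before adjustment 7 of the 44 had p under 0.05, against 11.7% of all.

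Of 38 genes of contraction signalling (receptors, G proteins, channels and the RhoA pathway), 20 were measured, and 1 rose and 0 fell. Ptger3, through which prostaglandin E2 is known to promote contraction, averaged 237 after P4 and 74.6 after vehicle (1.33 ± 0.21, adjusted p = 0.00102) at 1 probe set, while its other, very dim one had 0.10 ± 0.08. In PRKO uteri the first averaged 107 after P4 and 85 after vehicle (0.25 ± 0.21, adjusted p = 0.747), and the difference between genotypes did not pass (−1.08 ± 0.29, adjusted p = 0.289). The list's median was −0.04. Among 18 of 21 measured regulators that act with serum response factor and myocardin, 0 passed, with a median of −0.07, and the values furthest from 0 were Klf5 (−0.37 ± 0.27) and Gata6 (−0.31 ± 0.13).

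Non-muscle paralogs of the members, the actins, myosins, tropomyosins, calponins and transgelin used by other cells, were all measured (10 of 10 genes). None passed, their median was 0.16, and Cnn3, a calponin of non-muscle cells, had 0.34 ± 0.12 (adjusted p = 0.207). Of their 13 probe sets, 11 lay above 0, against 50.2% of all. Among 14 skeletal muscle genes only Acta1 rose. This skeletal actin averaged 2298 after P4 and 804 after vehicle (1.52 ± 0.38, adjusted p = 0.0434) in wild-type uteri, and 1987 after P4 and 713 after vehicle (1.49 ± 0.38, adjusted p = 0.703) in PRKO uteri. The skeletal list, Acta1 included, summed to 8078 to 8532 after P4 and 6178 to 6403 after vehicle in wild-type uteri. Its median change there was 0.07, and 13 of its 21 probe sets lay above 0, against 50.2% of all. Of 3 cardiac genes 0 passed, a sum of 3191 to 3880 after P4 and 1943 to 2722 after vehicle, and Actc1 at 0.56 ± 0.17 on a probe set shared within the actin family and Tnnt2 at 0.95 ± 0.43.

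Markers of other tissues and a measure of RNA quality moved with P4 at 40 h in the wild-type arrays. The mean log2 signal of 9 of 11 adipose markers measured was 8.81 to 9.58 after P4 and 10.06 to 10.38 after vehicle, and their summed signal 6188 to 10836 after P4 and 15004 to 17611 after vehicle (exact two-sided permutation p = 0.1 for the mean, the smallest that 3 against 3 allows, and 0.267 adjusted over 8 tests). No adipose probe set was at 0. Of these genes 6 fell, among them Lpl (−1.65 ± 0.39) and Adipoq (−1.41 ± 0.25), where 0.821% of all probe sets fell. The Gapdh 3'/5' ratio was 1.23 to 1.30 after P4 and 1.48 to 1.60 after vehicle (exact p = 0.1, 0.267 adjusted). The mean log2 signal of the 10 contractile genes on the same arrays was 11.87 to 11.98 after P4 and 11.62 to 11.70 after vehicle.

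Stromal markers moved too, in a contrast where 0.716% of all probe sets rose and 0.821% fell. Their 9 measured genes summed to 33778 to 38010 after P4 and 24281 to 30153 after vehicle, and 4 of them rose, including Col3a1 (0.91 ± 0.16) and Col1a1 (0.78 ± 0.14). Epithelial markers summed to 6992 to 7809 after P4 and 8589 to 9411 after vehicle, with 2 of 11 genes falling. For pericytes, 5 of 6 genes were measured, none passed, and the sum was 3353 to 3613 after P4 and 3761 to 4241 after vehicle. Of 8 endothelial genes 1 fell, Cldn5 (−0.79 ± 0.18), and no macrophage or mesothelial marker passed. Macrophage markers summed to 4000.2 to 4240.0 after P4 and 3606 to 3848 after vehicle, without overlap, while endothelial and mesothelial sums overlapped. No probe set of these lists was at 0. In PRKO uteri at 40 h the stromal sum was 28971.5 to 30537 after P4 and 26253 to 27830 after vehicle, also without overlap, and no stromal probe set passed.

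With the adipose mean as a covariate the 10 genes had a median of 0.37 (range 0.10 to 0.61) and the lowest adjusted p was 0.624. With the log2 Gapdh ratio as a covariate the median was 0.28 and Myh11 passed (adjusted p = 0.0349). On the 40 h arrays alone, where each measure separates the wild-type treatments without overlap, the medians were 0.32 with the adipose and 0.34 with the Gapdh covariate, no member passed, and the lowest genes were Smtn at −0.03 and Actg2 at −0.06. In PRKO uteri at 40 h the adipose mean was 9.94 to 10.25 after P4 and 10.25 to 10.42 after vehicle (exact p = 0.1, 0.267 adjusted), and the Gapdh ratio overlapped. The part of tissue makeup and RNA quality in the members' values was not tested beyond these fits.

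**Figure D4:**
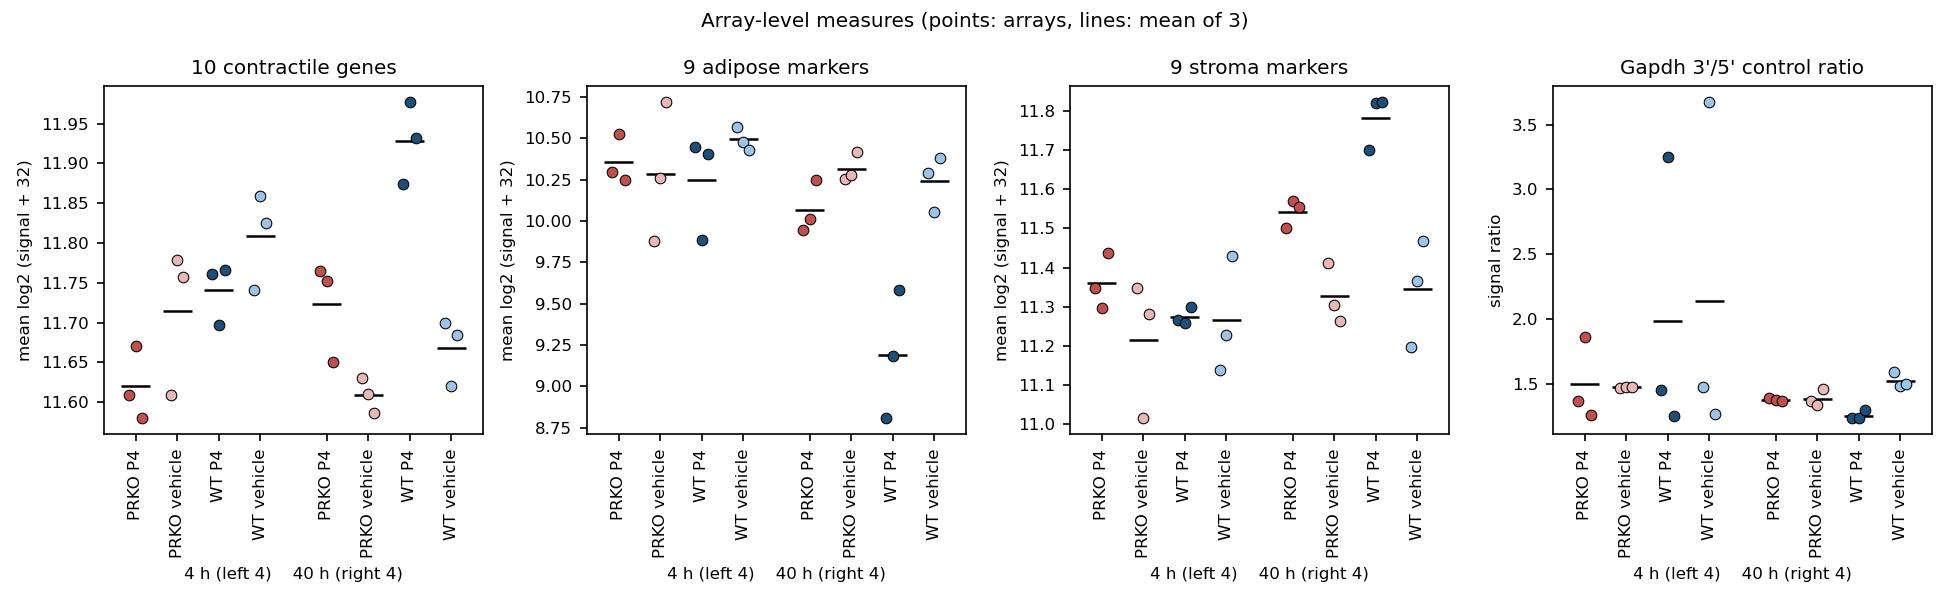
Mean log2(signal + 32) of the 10 contractile genes, 9 adipose markers and 9 stroma markers, and the Gapdh 3'/5' signal ratio, on each of 24 arrays; points are arrays and lines means of 3. On the wild-type P4 arrays at 40 h the contractile mean (11.87 to 11.98) and the stroma mean are high while the adipose mean (8.81 to 9.58) and the Gapdh ratio (1.23 to 1.30) are low.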

How the data were processed

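Affymetrix mouse arrays measured total RNA on 24 arrays in 8 groups of 3. The authors deposited 1 intensity per probe set and array, unlogged. MAS5 is named in the submitters' processing notes, with neither version nor settings. Of 12488 probe sets, 66 controls were left out. No detection calls were used. Precision is limited by having 3 arrays a group.

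Arrays were brought to a common mean of 500, leaving out 2% of values at each end, which took factors of 0.954 to 1.03. Values plus 32 were log2-transformed, which understates changes of dim genes. A limma model (3.58.1, R 4.3.3; group means, trended prior, 16 residual degrees of freedom) was fitted to 12422 probe sets and 24 arrays, with 10 contrasts, two-sided tests, Benjamini-Hochberg adjustment over all probe sets and a threshold of 0.05. The fit was tested on simulated data with independent noise, where recovery was required only for changes larger than any member's. That test therefore does not show recovery of changes as small as those of the members. Symbols came from GEO's platform annotation, updated by gene identifier for 10817 of 10833 single-gene probe sets; 396 probe sets name several genes and 1193 none. Promoter motifs were searched with Python 3.11.15.

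All 10 members were named, with every probe set naming only 1 of them. From each other list up to 4 passing genes with the largest change were named per comparison, or up to 2 as values where none passed, and 6 genes by likeness. The members and lists were chosen with earlier results of these data known. Same-numbered wild-type 4 h arrays of P4 and vehicle deviated together (r = 0.11, 0.52 and 0.35), so the numbers were taken to pair them there. Alternatives were quantile scaling, offsets 16 and 64, a filter on dim probe sets, arrays of 1 time point, a replicate block, array weights, covariates and left-out arrays.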

Additional observations from a re-analysis of the deposited data

How the results depend on the processing

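The wild-type 40 h P4 comparison is the one most open to processing. Its count of members passing was 0. It was 1 (Myh11) with the dimmest probe sets left out, with the 40 h arrays alone, with the Gapdh ratio as covariate, and with the 40 h arrays alone after quantile scaling. The replicate block gave 2 (Myh11 and Tpm1), array quality weights 3 (with Des), and the 40 h arrays alone with a replicate block 4 (with Smtn). Quantile scaling on 24 arrays, both offsets, the adipose covariate, the 40 h arrays alone with either covariate, and each left-out array gave 0. The 10-gene median ran from 0.24 to 0.37 over these settings, and the lowest gene was −0.01 (Tagln) after quantile scaling, −0.03 (Smtn) with the 40 h arrays alone and the adipose covariate and −0.06 (Actg2) with those arrays and the Gapdh covariate. Over all probe sets the count was 191, between 0 and 827, with 539 on the 40 h arrays alone, 386 with the block, 519 with array weights, 369 with the Gapdh covariate, and 3 with the adipose covariate. In PRKO uteri at 40 h, array weights gave 4 members (Cnn1, Mylk, Smtn and the dim Tpm2 probe set) where 3706 of all probe sets passed, against 0 without weights. For wild-type vehicle at 40 h against 4 h, the replicate block gave 2 (Actg2 and the dim Tpm2 probe set; 335 of all), and 1, the dim Tpm2 probe set, passed without both arrays of high Gapdh ratio (187 of all) and with the Gapdh covariate (214 of all), against 36 of all in the unblocked fit. Numbers are nested in time, so that block takes no account of spread between blocks. For the difference between the 40 h and 4 h P4 effects, Myh11 alone passed (1) with the replicate block (112 of all), array weights (76) and the Gapdh covariate (86), against 59 of all, and left-out arrays gave 0 to 1, the 1 without replicate 3 of the wild-type 4 h P4 group (91 of all). In the other 6 comparisons no alternative gave a member call. All-probe-set counts moved from 88 to between 19 and 138 (wild type 4 h), 12 to between 1 and 42 and 13 to between 0 and 1496 (genotype differences at 4 h and 40 h), 23 to between 3 and 34 and 8 to between 1 and 38 (vehicle PRKO against wild type at 4 h and 40 h), 36 to between 0 and 335 (vehicle 40 h against 4 h) and 59 to between 18 and 112 (P4 effect 40 h against 4 h). The cause of each change was not tested. No member was called in the unaltered fit, so no called direction could turn. Over the alternatives the sign of uncalled member values changed in 22 of 197 for wild-type P4 at 4 h and 10 of 208 at 40 h. For PRKO against wild-type vehicle it changed in 21 of 197 at 4 h and 20 of 208 at 40 h. The 5 alternatives that combine the arrays of 1 time point with another choice were added after the data were seen. The labels pair no arrays. The replicate numbers were taken to pair arrays in the wild-type 4 h comparison alone, where the block changed no member call. Each array there correlated best with its own number (r = 0.11, 0.52 and 0.35). The same held in both 40 h P4 comparisons. There r was 0.48, 0.07 and 0.45 in PRKO uteri and 0.12, 0.14 and 0.07 in wild-type uteri. In the PRKO P4 comparison at 4 h r was 0.63, 0.25 and −0.12, and replicates 2 and 3 did not correlate best with their own number. Some numbers also failed to do so between PRKO and wild-type vehicle arrays at 4 h and at 40 h. Pairing by number is thus a hint from some comparisons in the data and not from the design.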
